A study of Mus musculus with 2 samples.

Results

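Histone genes were taken from the 2 libraries by gene symbol: every gene whose name starts with H1f, H2ac, H2bc, H3c, H4c, H2az, H3f3, H2ax or Macroh2a, other than 7 names that end in "-ps". The rule found 82 of 44291 genes. Of these, 67 were replication-dependent genes, 14 were variant genes and 1 was an antisense RNA, H3f3aos, which the name alone brought in. H3f3aos was at 0.049 FPKM with PRP and 0.038 FPKM in the control, where FPKM is the number of fragments scaled by exon length and by library size, and it is left out of all counts below.

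Histones are the proteins around which DNA is wound. H2A, H2B, H3 and H4 build the core of the nucleosome, and H1 sits on the linker DNA between nucleosomes. Most histone protein is made in S phase from clustered, intronless genes whose mRNA ends in a short stem-loop in place of a poly(A) tail. The stem-loop is bound by Slbp, and the mRNA is cleaved just after it with the help of the U7 snRNP. Variant histones such as H3.3 (H3f3a and H3f3b), H2A.Z (H2az1 and H2az2), macroH2A and H1.0 (H1f0) are made outside S phase too, mostly from polyadenylated mRNA, and they take the place of the S-phase histones in cells that divide slowly or differentiate.

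The RNA came from primary fibro-adipogenic progenitors (FAPs) of wild-type (WT) mice, stromal cells between the muscle fibres that are able to form fat. Both cultures were given adipogenic induction medium with IBMX, dexamethasone and insulin, and they differed in treatment with platelet-rich plasma (PRP) or vehicle (control). The labels name PRP, while the text of the study describes exosomes from the PRP of young donors before sequencing. PRP and control are used below as in the labels, and neither the age of the mice nor the time of harvest is given in the labels. Each group held 1 library, so no difference has a replicate check and no p-value is given.

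Assigned reads came to 40120843 with PRP and 34139741 without. All 82 histone genes gave whole reads from their FPKM, so each ratio of PRP to control FPKM is given with an exact Clopper-Pearson 95% interval, written in brackets. These intervals were computed on fragments (reads divided by 2), cover counting error only, and compare 2 libraries, not 2 treatments. The FAP markers Pdgfra (19.8 FPKM with PRP and 28 in the control) and Ly6a (59.9 and 66.4 FPKM) were well above 0 in both libraries, whereas the other FAP markers ran from 0.072 FPKM (Lum in the control) to 8.36 FPKM (Dcn in the control). The adipocyte gene Adipoq was at 5.49 and 5.22 FPKM and Plin1 at 1.73 and 2.10 FPKM, with intervals that include 1. Cidec and Lep stayed at or below 0.242 FPKM. Myogenic markers reached at most 0.031 FPKM, and the leukocyte marker Ptprc was at 0.011 and 0.019 FPKM. Of the platelet markers, Itga2b was at 0.567 and 0.365 FPKM, a ratio of 1.55 [1.01 to 2.43], and Pf4, Ppbp and Gp9 stayed at or below 0.069 FPKM. The immune and endothelial markers with intervals off 1 were Cd68, at 4.56 FPKM with PRP and 2.31 FPKM in the control, Kdr, at 4.23 and 1.5 FPKM, and, at a low level, Pecam1, at 0.188 and 0.047 FPKM, a ratio of 4.0 [1.49 to 13.4]. Cdh5 stayed at or below 0.098 FPKM, and the part of these cells in the histone values was not tested. In bulk RNA, fewer cells of a type and less RNA per cell cannot be told apart.

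The stem-loop sets the replication-dependent class apart at the level of sequence. It was searched after the stop codon of each M21 gene model as 16 bases, a stem of 6 base pairs around a loop of 4, and was found in 46 of the 67 replication-dependent genes. Among the variant genes only H2ax held it. Of all 22527 coding genes in the annotation, 62 held it (0.275%), and 15 of the 22448 coding genes outside the histone set did (0.0668%). Of the 21 replication-dependent models without it, 17 had under 60 annotated bases after the stop codon, too short a stretch for a search to say much. The rest, H2bc4, H2bc21, H2bc23 and H2bc24, had 742 to 2192 bases there with no match. The class of every gene was set by its symbol and not by the stem-loop. The genes on which the results below turn are shown here 5′ to 3′ from the M21 transcripts, with the stem-loop in capitals and 5 flanking bases on each side where the model has them.
H1f2: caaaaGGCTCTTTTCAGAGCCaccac
H2ac19: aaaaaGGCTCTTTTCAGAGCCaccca
H2ac25: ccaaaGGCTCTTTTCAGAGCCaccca
H2bc11: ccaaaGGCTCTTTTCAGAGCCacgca
H3c15: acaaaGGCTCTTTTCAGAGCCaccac
H4c17: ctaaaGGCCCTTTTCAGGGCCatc
H4c9: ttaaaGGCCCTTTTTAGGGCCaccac
H4c14: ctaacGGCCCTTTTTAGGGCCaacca
H2ax: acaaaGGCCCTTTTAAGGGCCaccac

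In these lines the family shows in the stem. Every H4 model with a stem-loop carried GGCCC or GGTCC at its start, and so did H2ax with GGCCC, whereas every replication-dependent H1, H2A, H2B and H3 model in which a stem-loop was found began it with GGCTC. The sequence shared by H1f2, H2ac19, H2ac25, H2bc11 and H3c15 was the most frequent and stood in 26 genes, and the form of H4c17 stood in 7 H4 genes. H4c9 and H4c14 were the 2 H4 genes with the loop TTTT between the arms of the stem, where H4c17 has TTTC. On GRCm38 the capitals lie at chr13:23739512-23739527 (plus strand) for H1f2, at chr3:96239784-96239799 (minus strand) for H2ac19, at chr13:22040966-22040981 (minus strand) for H4c9 and at chr9:44335240-44335255 (plus strand) for H2ax. The stem-loop began 21 to 58 bases after the stop codon across the replication-dependent genes, with the longest distance in H2ac19 and its neighbour H2ac18.

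A second sequence mark lies in front of the genes. The octamer ATTTGCAT, the motif bound by POU factors such as Oct-1 that is known from H2B promoters, was searched on both strands of RefSeq promoter windows (GRCm38.p6, 250 bases before to 50 after the start). It was in 13 of the 58 replication-dependent windows that matched by symbol, against 570 of 32851 windows of all genes (1.74%). All 13 were H2A or H2B genes, 7 of 14 H2B windows and 6 of 17 H2A windows, and no H1, H3 or H4 window held it. The 13 genes hold 10 distinct octamers, since 3 lie between an H2A and an H2B gene and count once for each, the one of H2bc8 among them. Among 11 variant windows, H3f3b had it. The windows of 3 H2B genes described below and of H3f3b show the octamer in capitals.
H2bc6: agtaagacttaATTTGCATaagactgccta
H2bc8: ttgagtcccttATTTGCATagaacctctat
H2bc18: tgtgaaacctcATTTGCATacaagctctat
H3f3b: acagaaccctgATTTGCATacaccaacgac

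These windows lie at chr13:23586019-23586048 (minus strand), chr13:23571330-23571359, chr3:96269641-96269670 and chr11:116024560-116024589 (all plus strand). A match to these letters is a description and not a measured binding site.

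As a class, the histone genes took nearly the same share of all FPKM in both libraries. The kit was an mRNA kit, so the shares are of the RNA it kept. How far it kept histone mRNA without a poly(A) tail is not known. The 81 genes summed to 579.4 FPKM with PRP and 588.3 FPKM in the control, which was 0.169% and 0.173% of all FPKM. Replication-dependent genes made up 67.9% of the histone FPKM with PRP and 67.6% in the control. Their sum was 393.3 FPKM with PRP and 397.4 FPKM in the control, a ratio of 0.990. The variant genes summed to 186.1 and 190.8 FPKM, a ratio of 0.975. As fragments per assigned read the order was the other way, at 0.949 [0.919 to 0.981] for replication-dependent and 1.01 [0.980 to 1.04] for variant genes. Of the 81 genes, 7 were at 0 in both libraries and 29 had a mean FPKM of at least 1, the minimum for a log2 fold change (log2 of PRP FPKM + 1 minus log2 of control FPKM + 1). None of the 29 reached 2-fold on that scale, where 379 of all 13401 such genes did (2.83%), 268 of them higher with PRP (2.00%) and 111 lower (0.828%).

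Under these level sums single genes differed. Of the 29, 14 were higher and 15 lower with PRP, beside 50.9% higher and 49.1% lower among all genes. The interval lay above 1 for 5 of the 29 and below 1 for 4, and 20 intervals held 1. Among all 12369 such genes with whole reads, 26.1% lay above and 26.1% below, so both histone counts were under the share of all genes. These shares are not matched for depth. Intervals widen where fragments are few, as for H2ac13 with 7 fragments with PRP and 13 in the control. The plot of levels by gene shows how few of them carry the sums: H2ac19, H2bc4 and H1f2 held 78.8% of the replication-dependent FPKM with PRP and 83.6% in the control.

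**Figure D1:**
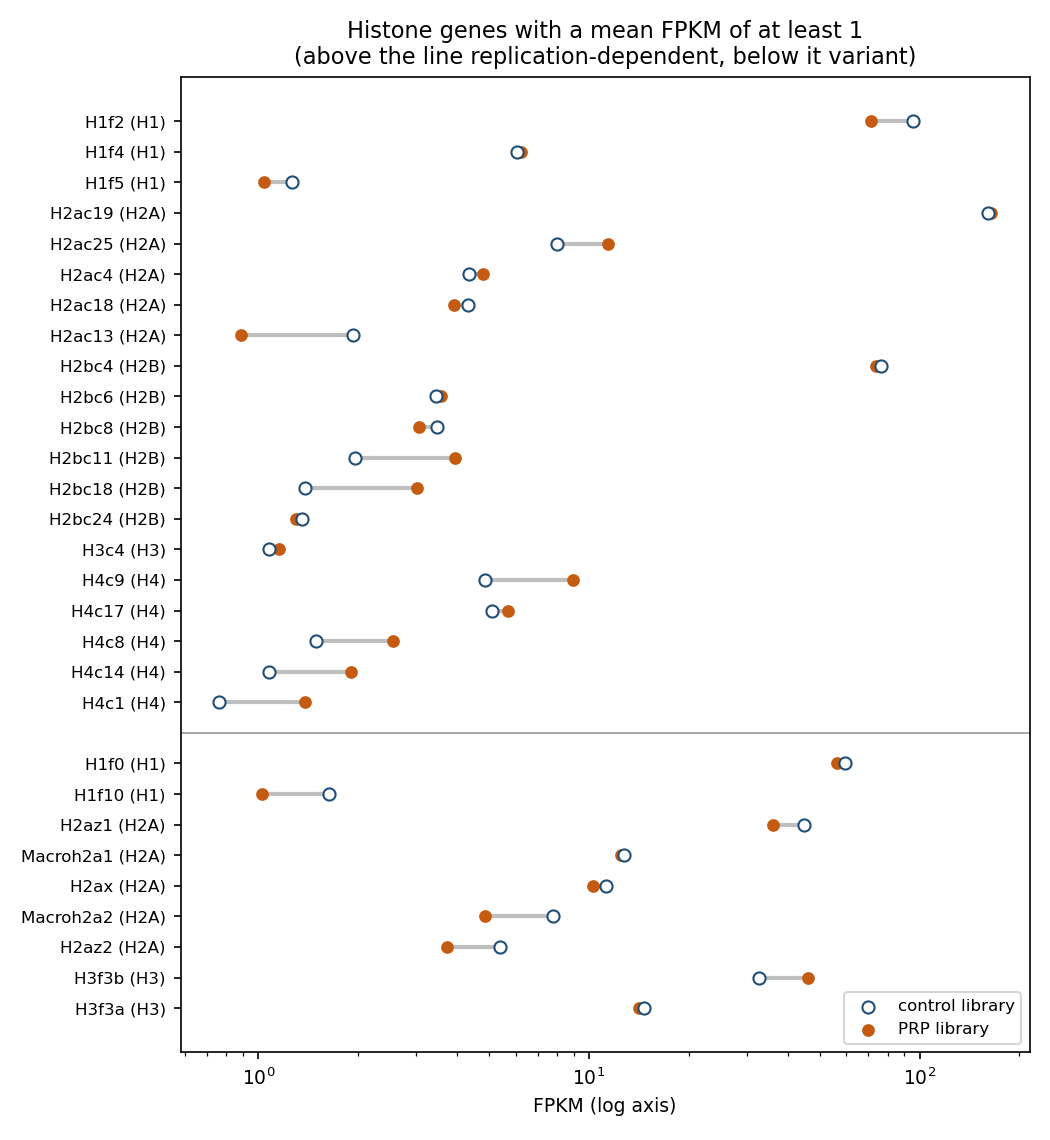
FPKM (log axis) of the 29 histone genes with a mean of at least 1 in the PRP library (filled) and in the control (open), 1 library each, joined by a grey line; replication-dependent genes stand above the horizontal line and variant genes below it. H2ac19 leads with 164.6 and 160.7 FPKM, H1f2 is at 71.3 with PRP and 95.2 in the control, and H3f3b is at 46.1 and 32.6.

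Linker histone H1 held the replication-dependent gene that was lower with PRP. H1f2 (chr13:23738808-23740367, H1.2) was at 71.3 FPKM with PRP and 95.2 FPKM in the control, a ratio of 0.748 [0.707 to 0.793]. It was the only replication-dependent gene with a mean FPKM of at least 1 whose interval lay below 1. H1f4 (H1.4) was at 6.21 and 6.04 FPKM, and H1f5 (H1.5) was at 1.04 and 1.26 FPKM. Neither of their intervals left 1 out. The other H1 genes of the class, H1f1, H1f3 and the testis gene H1f6, stayed at or below 0.890 FPKM in both libraries, and all 3 were higher with PRP. Summed over the 6 genes, the ratio of fragments was 0.781 [0.741 to 0.824], and without H1f2 it was 1.04 [0.893 to 1.201], so the H1 value rested on that gene.

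H2A was the most abundant replication-dependent family, through 1 gene. H2ac19 (chr3:96239749-96240276) was at 164.6 FPKM with PRP and 160.7 FPKM in the control, a ratio of 1.02 [0.955 to 1.10]. Its neighbour H2ac18 (chr3:96245497-96246082) was at 3.91 and 4.30 FPKM. The coding sequences of the pair are identical, and 100% of the 100-base stretches of H2ac19 occur in other genes, so the split between them is uncertain. Added up, they came to 168.5 and 165.0 FPKM, a ratio of 1.02 [0.953 to 1.09].

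The other H2A genes were far less abundant, and their sum was higher with PRP. H2ac25, the one replication-dependent gene above 0 on chromosome 11 (chr11:58954685-58956830), was at 11.4 FPKM with PRP and 8.03 FPKM in the control, a ratio of 1.42 [1.23 to 1.65]. H2ac4 was at 4.80 and 4.33 FPKM. H2ac13 went the other way at 0.888 and 1.94 FPKM, but its ratio of 0.458 [0.155 to 1.24] rested on few reads, and 88.4% of its 100-base stretches occur elsewhere. The 17 H2A genes other than H2ac19 gave a ratio of fragments of 1.30 [1.15 to 1.47]. H2ac25 held most of those fragments, 490.5 of 667 with PRP and 294 of 438 in the control.

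In the H2B family, H2bc4 (chr13:23684199-23692908) was at 74.0 FPKM with PRP and 76.5 FPKM in the control, a ratio of 0.967 [0.902 to 1.04]. Below it, H2bc11 was at 3.93 and 1.96 FPKM, a ratio of 2.00 [1.08 to 3.90]. The coding sequence of H2bc11 is 98.95% identical to that of H2bc4, and 40.1% of its 100-base stretches occur in other genes, so its reads are uncertain. H2bc18, 1 of the octamer genes shown above, was at 3.01 and 1.38 FPKM, a ratio of 2.17 [0.969 to 5.34] that includes 1. For the other octamer genes printed above the intervals included 1, with H2bc6 at 3.57 and 3.45 FPKM and H2bc8 at 3.07 and 3.46 FPKM. H2bc24 was at 1.30 and 1.35 FPKM. All 11 H2B genes with a mean above 0 and under 1 FPKM, though, were higher with PRP, and together they held 127 fragments with PRP and 53 in the control, a ratio of 2.04 [1.47 to 2.87]. However, 4 of the 11 had 0 reads in the control, and such a gene enters only through the PRP library and can only be higher. The 7 genes with reads in the control held 114 fragments with PRP and 53 in the control, a ratio of 1.83 [1.31 to 2.59]. Of these, H2bc23 held 40.5 and 15 fragments, and 94.8% of its 100-base stretches occur in other genes. Added to its copy H2bc24, which is not among the 11, it gave 1.26 [0.915 to 1.75]. Others of the 11 also share at least 50% of such stretches, so the split of reads is uncertain. Among all genes with a mean above 0 and under 1 FPKM, 54.8% were higher with PRP.

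Replication-dependent H3 genes had very low FPKM in both libraries, which were made with an mRNA kit. The 12 genes summed to 4.34 FPKM with PRP and 5.10 FPKM in the control, and H3c4, at 1.16 and 1.08 FPKM, was the only one with a mean of at least 1. The near-identical cluster on chromosome 3 was lower with PRP: H3c14 held 28 reads with PRP and 60 in the control, H3c15 21 and 44, and H3c13 0 and 2. Summed, the trio held 24.5 fragments with PRP and 53 in the control, a ratio of 0.393 [0.233 to 0.646]. In the whole family the ratio was 0.761 [0.565 to 1.02], which includes 1. H3c13, H3c14 and H3c15 were named after their values were seen.

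In the H4 family, all 5 genes with a mean of at least 1 FPKM were higher with PRP, with a median log2 fold change of 0.49, and 2 of the 5 intervals lay above 1. Among all genes 50.9% were higher and 26.1% had an interval above 1. Of the other 8 H4 genes, 3 were at 0 in both libraries, 4 were higher and 1 was lower with PRP. H4c9 was at 8.95 FPKM with PRP and 4.83 FPKM in the control, a ratio of 1.85 [1.35 to 2.56], and H4c14 was at 1.91 and 1.08 FPKM, a ratio of 1.77 [1.13 to 2.84]. These are the genes with the TTTT loop printed above, and H4c14 shared none of its 100-base stretches with another gene. H4c8 was at 2.55 and 1.5 FPKM, H4c1 at 1.39 and 0.761 FPKM, and H4c17 at 5.70 and 5.10 FPKM, with intervals that include 1. The 13 H4 genes summed to 22.8 FPKM with PRP and 14.5 FPKM in the control, and the ratio of fragments was 1.61 [1.32 to 1.96].

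**Figure D2:**
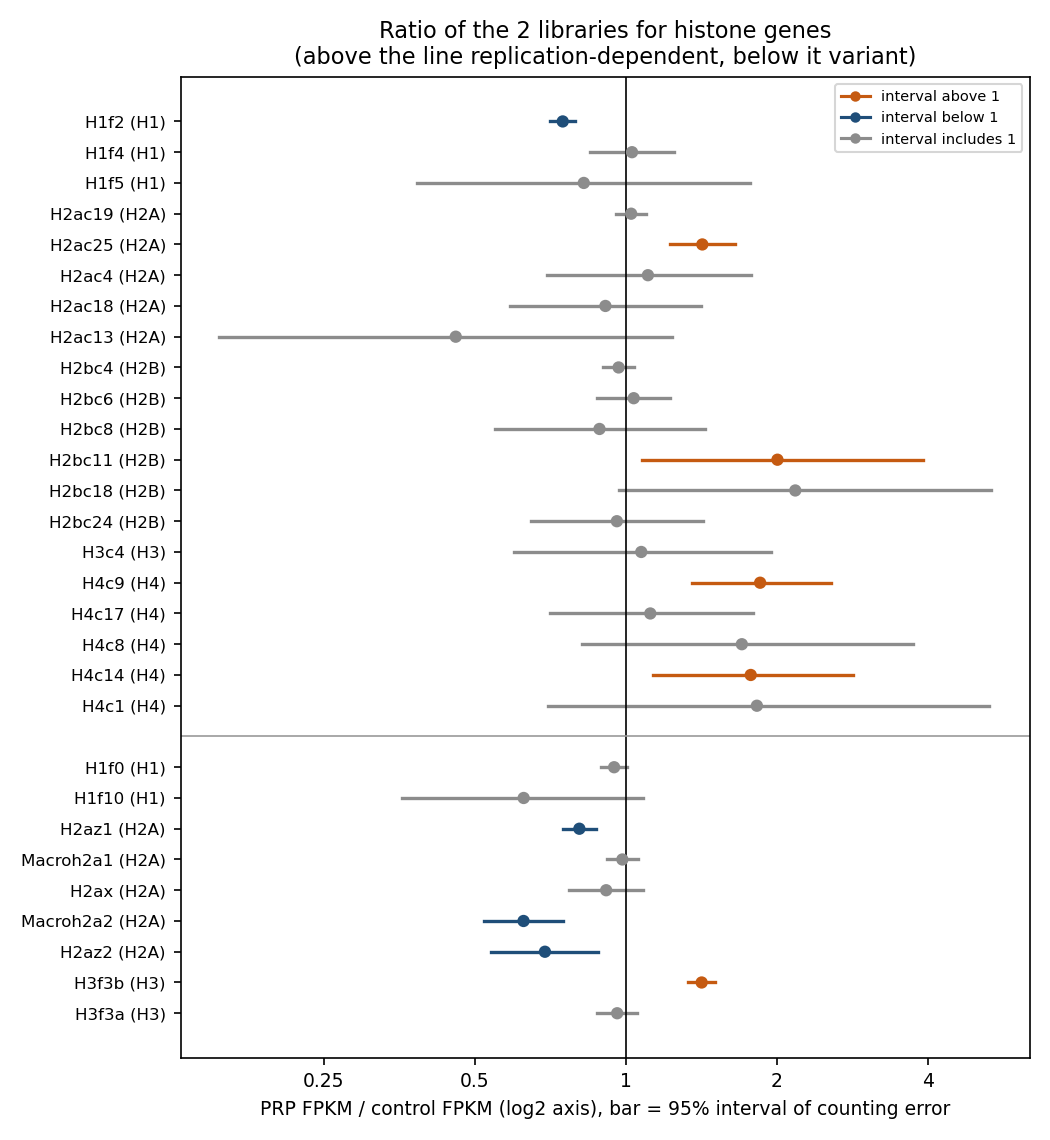
Ratio of PRP to control FPKM (log2 axis) for the 29 histone genes with a mean of at least 1 FPKM, with 95% intervals of counting error as bars; orange marks intervals above 1, blue below 1 and grey those that hold 1. H4c9, H4c14, H2bc11, H2ac25 and H3f3b are orange, and H1f2, H2az1, H2az2 and Macroh2a2 are blue.

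The family sums are set side by side in the plot of summed fragments. Over all 67 replication-dependent genes the ratio of fragments was 0.949 [0.919 to 0.981]. For the 3 most abundant genes it was 0.881 [0.849 to 0.915], and for the other 64 it was 1.21 [1.13 to 1.29], on 2061.5 fragments with PRP and 1454.5 in the control. In FPKM those 64 genes came to 83.4 and 65.0. The class value near 1 thus combined a lower H1f2 with higher H2A, H2B and H4 genes of small level. The median log2 fold change of the 20 genes tested was 0.047, with a range from −0.64 to 0.77, 13 higher and 7 lower, and the median over all genes was 0.0065.

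**Figure D3:**
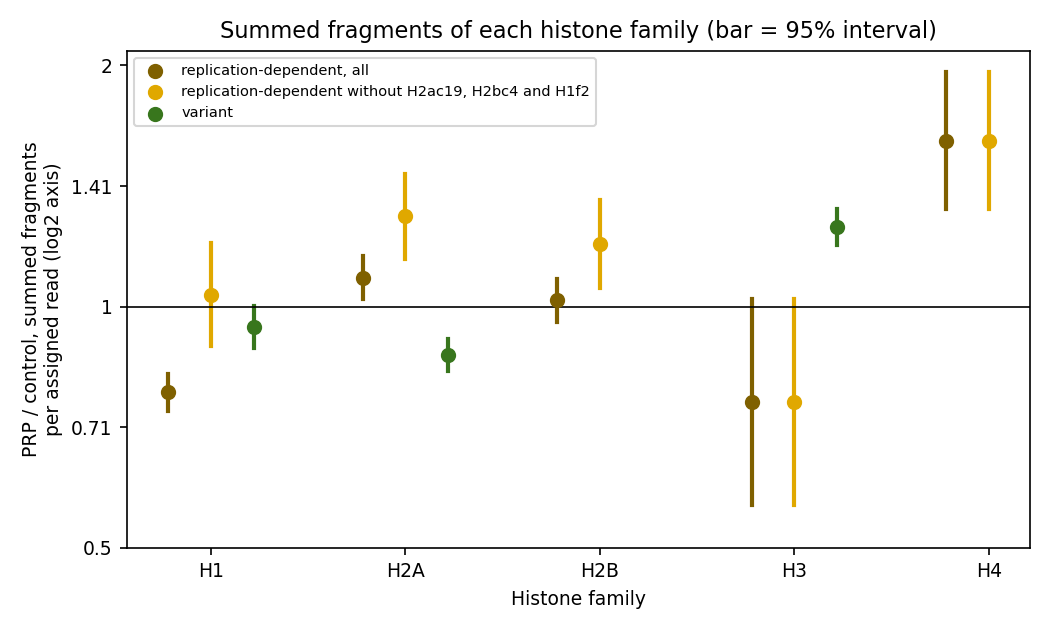
Ratio of summed fragments per assigned read between the PRP and control libraries (log2 axis) by histone family, with 95% intervals as bars, for all replication-dependent genes, for these without H2ac19, H2bc4 and H1f2, and for the variant genes. H1 moves from 0.781 to 1.04 when H1f2 is left out, H4 stands at 1.61, and the variant H2A and H3 groups lie on opposite sides of 1.

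Most replication-dependent genes had few reads. Of the 67, 5 were at 0 in both libraries and 42 had a mean above 0 and under 1 FPKM, with a highest single value of 1.26 FPKM. In these 42 genes, 31 were higher and 11 lower with PRP, beside 54.8% higher among all genes of that range. They held 436 fragments with PRP and 314 in the control, a ratio of 1.18 [1.02 to 1.37], where the 14037 low genes with whole reads gave 1.04 together. A count of 0 in the control and some reads with PRP was found for 8 genes, which could only be higher, and the reverse for 1 gene, H3c13. The 33 genes with reads in both libraries, 23 higher and 10 lower, gave 1.13 [0.974 to 1.31], an interval that includes 1. Among all 10432 genes of that range with reads in both libraries, 51.2% were higher. H2bc22 had the most reads among the 8, with 16 against 0, while a count of 0 still allows up to 3 fragments. H4c18, a copy of H4c17 with the same coding sequence, held 21 reads with PRP and 2 in the control, a ratio of 8.93 [1.29 to 386], but H4c17 and H4c18 added up gave 1.34 [0.864 to 2.09]. For H2bc23, whose coding sequence equals that of H2bc24, 81 and 30 reads were found, and the pair gave 1.26 [0.915 to 1.75]. So 2 of the single-gene contrasts did not hold once copies were added up. H2bc22, H2bc23 and H4c18 were named after their values were seen.

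How much of each mRNA is annotated beyond the stem-loop differs widely between the genes. A transcript processed at the stem-loop ends just after it, so a model that runs on describes a longer form. At least 300 annotated bases followed the stem-loop in 18 replication-dependent genes, among them H1f2 (840), H4c9 (330), H4c14 (1257) and H2ac25 (1643), and their ratio of fragments was 0.876 [0.836 to 0.917]. H1f2 decided that value: without it the ratio was 1.17 [1.08 to 1.27], and without H1f2 and H2ac25 it was 1.08 [0.984 to 1.19]. In 28 genes with a shorter annotated end, H2ac19 (35) and H2bc11 (23) among them, it was 1.06 [0.994 to 1.13]. The 21 genes without a stem-loop in the model, H2bc4 among them, gave 0.998 [0.934 to 1.07]. FPKM is divided by the annotated exon length, so a long annotated end also lowers the printed level of a gene.

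**Figure D4:**
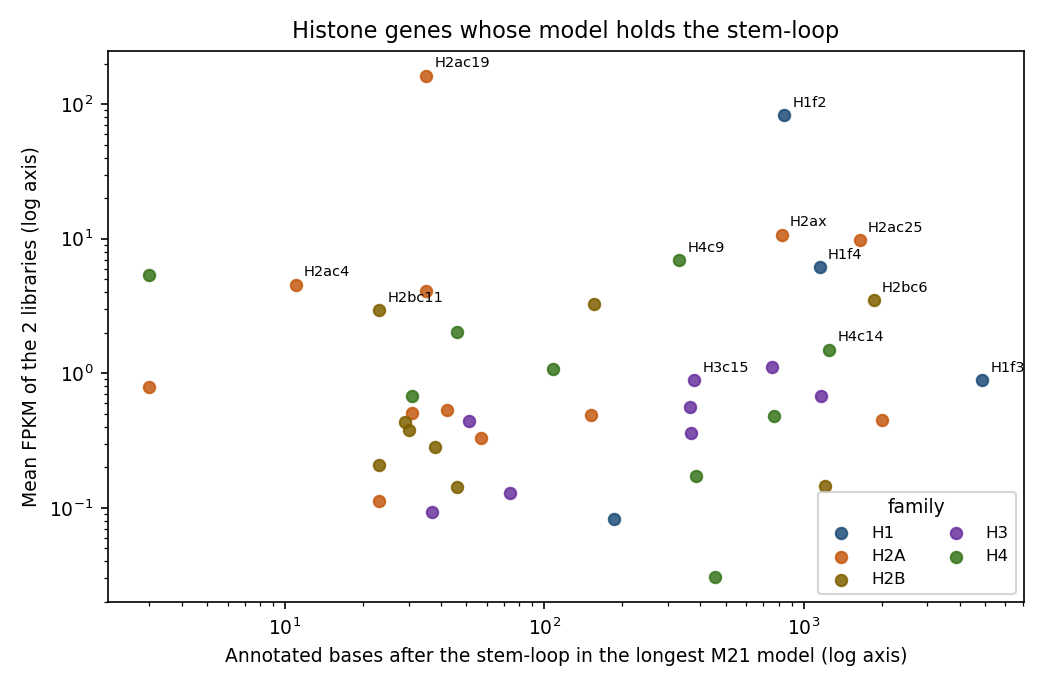
Mean FPKM of the 2 libraries (log axis) against the annotated bases after the stem-loop in the longest M21 model (log axis) for histone genes with a stem-loop and a level above 0, coloured by family. H2ac19 has 35 annotated bases after the stem-loop and the highest level, and H1f2 has 840.

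By chromosome, the main cluster on chromosome 13 (54 replication-dependent genes) gave a ratio of fragments of 0.896 [0.862 to 0.931], and without H1f2, which lies in it, 1.05 [0.991 to 1.10]. The 10 genes on chromosome 3 gave 1.03 [0.963 to 1.10], a value that H2ac19 leads. H4c16, the only replication-dependent gene on chromosome 6, was at 0 in both libraries.

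Among the variant genes most members were slightly lower with PRP and 1 abundant member was higher. Of the 14 genes, H1f7 and H1f9 were at 0 in both libraries, and 9 had a mean of at least 1 FPKM. With PRP, 8 of these were lower and 1 was higher, against 49.1% lower among all genes, and the interval was below 1 for 3 and above 1 for 1, where 26.1% of all genes lay on each side. Their median log2 fold change was −0.12, with a range from −0.58 to 0.49. The median of the replication-dependent genes less that of the variant genes was 0.17, a difference with no test. The ratios of summed fragments of the classes stood in the opposite order, 0.949 and 1.01.

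The H3.3 genes encode the same protein from separate loci, and they parted. H3f3b (chr11:116021912-116027962) was at 46.1 FPKM with PRP and 32.6 FPKM in the control, a ratio of 1.42 [1.33 to 1.51] on 5506 and 3310 reads. H3f3a was at 14.1 and 14.7 FPKM, a ratio of 0.961 [0.876 to 1.05], so H3f3b stood at 3.26 times H3f3a with PRP and at 2.22 times in the control. H3f3b was the only one of the 9 variant genes higher with PRP, and it is also the variant gene with the octamer window printed above. H3f3c, annotated as a processed pseudogene, was at 0.849 and 0.713 FPKM, and 56.7% of its 100-base stretches occur in other genes. Set against the replication-dependent H3 genes, H3f3a and H3f3b together held 13.9 times their FPKM with PRP and 9.27 times in the control. In these libraries the H3 mRNA that was counted was therefore mostly H3.3. The kit was an mRNA kit, and how far it kept H3 mRNA without a poly(A) tail is not known. In addition, 6 of the 12 replication-dependent H3 genes shared at least 50% of their 100-base stretches with other genes. The ratios are thus not a measure of the H3 make-up of the cells.

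The 5 H2A variants with a mean of at least 1 FPKM all had ratios under 1. H2az1, the main H2A.Z gene, was at 36 FPKM with PRP and 44.6 FPKM in the control, a ratio of 0.808 [0.748 to 0.873]. H2az2 was at 3.72 and 5.40 FPKM, a ratio of 0.690 [0.539 to 0.882]. Both H2A.Z genes thus lay on the same side, and H2az1 stood 9.67 times above H2az2 with PRP and 8.26 times in the control. H2ax, whose protein marks DNA breaks when phosphorylated, was at 10.3 and 11.2 FPKM, a ratio of 0.913 [0.770 to 1.08]. It is the variant gene with a stem-loop, and its ratio lay between those of H2az1 and Macroh2a1. The macroH2A genes, which encode histones with a large globular domain found on silent chromatin, went apart in size. Macroh2a1 was at 12.5 and 12.7 FPKM, a ratio of 0.984 [0.917 to 1.06], while Macroh2a2 was at 4.86 and 7.77 FPKM, a ratio of 0.625 [0.521 to 0.749], the lowest with an interval off 1 among the histone genes with a mean of at least 1 FPKM. Macroh2a3, annotated as a processed pseudogene, held 7 reads with PRP and 0 in the control. Summed over the H2A variants the ratio of fragments was 0.870 [0.831 to 0.912], and over the H3 variants it was 1.26 [1.195 to 1.32].

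Among the linker variants, H1f0, the H1 of resting and differentiated cells, was at 56.4 FPKM with PRP and 59.5 FPKM in the control, a ratio of 0.947 [0.893 to 1.01]. H1f10 was at 1.02 and 1.64 FPKM, a ratio of 0.626 [0.358 to 1.08]. The oocyte gene H1f8 was at 0.083 FPKM with PRP and 0 in the control. Of the abundant H1 genes, only replication-dependent H1f2 had an interval off 1. H1f2 stood above H1f0 in both libraries, at 71.3 against 56.4 FPKM with PRP and 95.2 against 59.5 FPKM in the control.

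Genes that make histone mRNA lay on both sides of the control. Of 19 genes for histone gene transcription and stem-loop processing, 17 had a mean of at least 1 FPKM, 10 higher and 7 lower with PRP, with a median log2 fold change of 0.034. Slbp, the stem-loop binding protein, was at 17 and 16.4 FPKM, a ratio of 1.04 [0.972 to 1.11]. Ccne1, cyclin E1, which drives histone transcription at the start of S phase, was the 1 gene lower by 2-fold, at 4.68 FPKM with PRP and 10.6 FPKM in the control, a ratio of 0.442 [0.378 to 0.516]. Ccne2 was at 7.29 and 9.24 FPKM, a ratio of 0.788 [0.698 to 0.891], and E2f1 at 5.32 and 6.32 FPKM, a ratio of 0.841 [0.721 to 0.981]. Both cyclin E genes and E2f1 were thus lower. Lsm10, a protein of the U7 particle, was at 3.89 and 2.64 FPKM, a ratio of 1.47 [0.995 to 2.20].

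The chaperone lists had medians on either side of 0. Among 15 measured genes for replication-coupled supply, 5 were higher and 10 lower with PRP, with a median of −0.080: Nasp, which holds H3 and H4 in reserve, was at 29.6 and 24.3 FPKM (ratio 1.22), and Chaf1a, a subunit of the assembly factor CAF-1, was at 14.8 and 18.6 FPKM (ratio 0.796). Tonsl was at 3.17 and 4.49 FPKM and the importin Ipo4 at 11.4 and 14.6 FPKM. Among 18 genes for the deposition and exchange of variants, 11 were higher and 7 lower, with a median of 0.15. The partners that place H3.3 at repeats went opposite ways: Daxx was at 24.5 and 16.2 FPKM, a ratio of 1.51 [1.39 to 1.65], and Atrx was at 8.55 and 14.3 FPKM, a ratio of 0.597 [0.572 to 0.623]. Of the factors that exchange H2A.Z, Ruvbl1 was at 70.2 and 47.3 FPKM and Yeats4 at 19.1 and 28.5 FPKM, again on opposite sides.

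Genes of the cell cycle give the setting for the replication-dependent class. Of 33 S phase genes, 9 were higher and 24 lower with PRP, with a median log2 fold change of −0.11. Thymidine kinase Tk1 was at 2.09 FPKM with PRP and 3.74 FPKM in the control, a ratio of 0.558 [0.468 to 0.664]. Lig1 was at 21.7 and 32.5 FPKM, Uhrf1 at 8.15 and 11.2 FPKM, and Gins1 at 3.22 and 4.56 FPKM. Mitosis genes were lower still: 18 of 20 were lower, with a median of −0.44, as in Mki67 at 22.6 and 39.2 FPKM, Top2a at 18.6 and 28.7 FPKM, Ccnb2 at 6.63 and 11.2 FPKM and Nusap1 at 5.03 and 7.87 FPKM. Counting intervals, which 1 gene in each list lacked, lay below 1 for 12 S phase genes and for 16 mitosis genes, and above 1 for 1 gene in each list, beside 26.1% of all genes on each side. The replication-dependent median of 0.047 stood above both medians. Whether the share of cells in S phase had a part in the histone values was not tested. In experiments apart from these libraries, the study reports higher BrdU incorporation and cell cycle mRNA in FAPs given exosomes from young donors.

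Other RNAs that lack a poly(A) tail differed far more between the libraries than the histone genes did, in the direction of PRP with 1 exception. Of the 8 entries with a mean of at least 1 FPKM, 7 were higher with PRP, 6 of them by at least 2-fold, with a median log2 fold change of 1.67. The counting interval lay above 1 for 2 of the 8, 4 gave no interval, and the rest held few reads. Snord3a is among them under 2 identifiers with the same ratio, and with each name counted once 6 of 7 were higher, 5 by at least 2-fold, with a median of 1.58, beside 2.00% of all genes higher by 2-fold. With no minimum on the level the median fell to 0.53. Snord3a, the U3 RNA, was at 24.6 FPKM with PRP and 3.85 FPKM in the control under its first identifier and at 24.5 and 3.83 FPKM under the second. Rn7sk was at 9.34 and 1.95 FPKM, and Rn7s2, an RNA of the signal recognition particle, was at 76.1 and 21.9 FPKM. Of 148 small nucleolar and Cajal body RNA genes, 74 had a mean of at least 1 FPKM, 57 higher and 17 lower, with a median of 0.51. The interval lay above 1 for 7 of the 74 and below 1 for 0, and 15 gave no interval. The kit was an mRNA kit, and how far it kept RNA without a tail in each library is not known. Whether this had a part in the histone values was not tested.

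**Figure D5:**
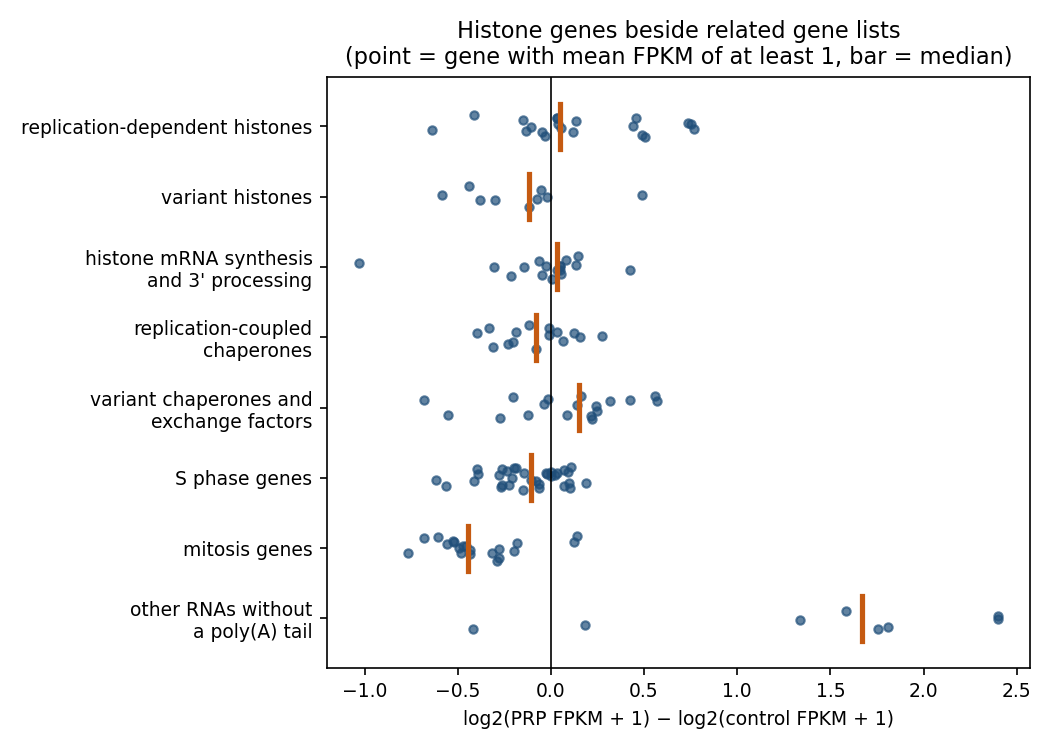
Log2 fold change, log2(PRP FPKM + 1) minus log2(control FPKM + 1), of each gene with a mean of at least 1 FPKM (points) and the median (bar) for the histone classes and for the lists of related genes. Medians run from −0.44 for mitosis genes through 0.047 for replication-dependent and −0.12 for variant histones to 1.67 for other RNAs without a poly(A) tail.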

How the data were processed

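RNA-seq of 2 libraries was used, 1 PRP and 1 control. Per the labels, RNA was taken up in TRIzol and libraries were made with a stranded mRNA kit; the submitters' processing notes name fastp 0.23.4, STAR 2.5.3a, featureCounts and mm10. The deposited values are FPKM, which the authors computed for 44291 genes per library; the annotation release, the strand setting of the counting and the FPKM step are not given in the sources used here, nor whether reads with several placements were counted.

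Identifiers were matched to GENCODE M21 on GRCm38 (41492 genes, 93.7%). With M21 exon lengths, 26406 of 28160 genes above 0 gave whole reads in both libraries within 0.001 reads. Even read numbers were in excess (79.3% and 80.3% of genes with up to 8 reads), so read numbers were divided by 2 for the exact Clopper-Pearson 95% intervals. PCR duplicates are not accounted for. The pseudocount was 1, which understates the change of low genes, and the minimum mean FPKM was 1. No count test was run, because no group has a replicate. The steps were tested on simulated reads, all in even numbers and with counting error only. That check does not cover PCR duplicates or genes with odd read numbers.

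Stem-loops were found in M21 transcripts and octamers in RefSeq promoter windows. Sequence shared between genes was counted as the share of a gene's 100-base stretches found in M21 transcripts of other genes.

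Every variant gene above 0 and every replication-dependent gene with a mean of at least 1 FPKM is named; from each list of related genes, up to 4 with the largest absolute log2 fold change, and Slbp. The histone genes, the lists and the rule were chosen with earlier results of these data known. H3c13, H3c14, H3c15, H2bc22, H2bc23 and H4c18 were named outside the rule, after their values were seen. So were, for their place, class or model, H1f1, H1f3, H1f6, H2bc21, H4c16 and the cell markers that are not among those 4. Alternatives were the pseudocount, the minimum, the scaling, the fold threshold, the class of H2ax, a class set by the stem-loop, and leaving out copies or abundant genes. Python 3.11.15, NumPy 2.4.6, pandas 2.3.3, SciPy 1.17.1 and matplotlib 3.10.9 were used.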

Additional observations from a re-analysis of the deposited data

How the results depend on the processing

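No paired analysis was possible because there was 1 PRP and 1 control library. Neither class median nor any list median that was recomputed changed sign, while the median over all genes, 0.0065, was −0.0072 and −0.023 under the 2 rescalings. None of the 29 histone ratios crossed 1 under a rescaling. The median of RNAs without a poly(A) tail fell from 1.67 to 0.53 with no filter, and a pseudocount of 5 took the variant exchange median from 0.15 to 0.077 and the mitosis median from −0.44 to −0.28. The count of histone genes at 2-fold, 0 as reported, was 2 with a pseudocount of 0.1 and 4 at 1.5-fold. The count over all genes, 379, became 739 when 0.1 was the pseudocount and 113 when it was 5. It was 210 with a mean of at least 5 FPKM and 1436 at 1.5-fold. After rescaling to a common sum it was 596 (380 higher, 216 lower). It was 638 (391 higher, 247 lower) when that sum excluded mitochondrial transcripts and the top 50 genes. Both rescalings enlarged all values while the pseudocount stayed at 1. The counts of 596 and 638 therefore also reflect a pseudocount of smaller weight, and the part of the scaling alone was not separated. The replication-dependent median, 0.047, was 0.12 with no filter, 0.46 over 9 genes without near-identical coding sequences, and, as alternatives chosen after seeing the data, 0.12 without the 3 most abundant genes and 0.25 without genes that share at least 50% of their 100-base stretches. The ratio of its sum, 0.990, was 1.07 without H1f2 and 1.28 without the 3 most abundant genes, so it crossed 1 in both, and both were also chosen after seeing the data. The variant median, −0.12, was −0.065 with no filter, −0.077 with a mean of at least 5 FPKM or with the class set by the stem-loop, and −0.19 with H2ax moved. The ratio of the variant sum, 0.975, was 0.884 without H3f3b, an alternative added after seeing the data. Intervals off 1 among the 29 genes, 9 as reported, were 14 with reads not divided by 2. Where the construction of an alternative does not show it, the cause was not tested. Depth limits most replication-dependent genes: 47 of 67 had a mean under 1 FPKM, 5 of them at 0 in both libraries, and most of their single values rest on few fragments. H1f3, with a long annotated model, held 132.5 fragments with PRP and 112 in the control, so the FPKM minimum is not a minimum of reads.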
